A study of Homo sapiens with 8 samples.

Results

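Calponins, tropomyosins and the ezrin, radixin and moesin (ERM) proteins bind actin filaments, and the mRNA of 10 of their genes was examined in breast cancer cells depleted of EI24. The genes were chosen by name, with no threshold on their values, but with earlier results of these data known. The gene lists below were also chosen with those results known. Their counts beside the shares of all genes are therefore a description and not a test. The genes were the calponins CNN1, CNN2 and CNN3, the calponin-related TAGLN, the tropomyosins TPM1, TPM2 and TPM4, and the ERM genes EZR, RDX and MSN. Of these 10 genes, 9 had a transcript cluster (the set of probes summarized as 1 value) annotated to that gene alone, among 18417 such genes on the array. EZR had only a cluster annotated to both EZR and ROS1, which is described on its own and not counted among the 9. ZR-75-1 cells are a line of human luminal breast cancer that expresses the estrogen receptor, and EI24 encodes an endoplasmic reticulum membrane protein first found as a gene induced by p53. The groups were shEI24 clone 1 and shEI24 clone 2, which are ZR-75-1 lines stably carrying short hairpin RNA (shRNA) against EI24, a ZR-75-1 line with shRNA against GFP (shGFP), and parental ZR-75-1 cells with no shRNA, with 2 arrays of each. The methods give a serum-containing medium for ZR-75-1 cells and name no chemical treatment for the arrays. They do not say whether a drug was used to select the shRNA lines or kept in their medium. Each shEI24 line was read from its label as 1 clone. The methods and the labels do not say whether both shEI24 lines carry the same hairpin. The sources used here do not say whether the shGFP line is a clone or a pool, nor whether a line was cultured separately for its 2 arrays. What the p-values weigh is the spread between these arrays, which may be technical.

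Actin filaments in non-muscle cells are shared out among bundles, meshes and the cortex under the membrane by the proteins that coat or anchor them. Tropomyosins are coiled-coil dimers that polymerize along the filament and set which other proteins, myosin and cofilin among them, can reach it. Calponins bind actin and, in smooth muscle, slow the actomyosin ATPase, and members outside muscle are found on stress fibres. ERM proteins tie the filaments to the cytoplasmic tails of membrane proteins once phosphorylation has opened them, and ezrin is the member best known from the apical surface of epithelial cells.

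All values are log2 intensities. The arrays had medians of 7.28 to 7.39, and the SD over genes of the difference between the 2 arrays of a line was 0.226 for clone 1, 0.207 for clone 2, 0.136 for shGFP cells and 0.19 for parental cells. A level was called background when the mean of a line lay under the 90th percentile of 341 olfactory receptor genes in that line, which was 6.43 in clone 1, 6.46 in clone 2, 6.33 in shGFP cells and 6.40 in parental cells. The targeted mRNA, EI24, was at 8.64 and 8.43 in clone 1, 9.25 and 9.19 in clone 2, 11.97 and 11.91 in shGFP cells and 12.08 and 12.09 in parental cells, so all shEI24 arrays lay below all control arrays (log2 difference from shGFP -3.06, SE 0.08, adjusted p = 8.6e-09 from limma). Of 8 luminal breast markers, all were above background in shGFP cells and in parental cells, and 6 were in each clone: ESR1, the estrogen receptor, and CDH1, E-cadherin, were at background in both clones. The identity of each line was taken from its label and was not tested by genotype.

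In the shEI24 clones 8 of the 9 genes rose against shGFP at an adjusted p under 0.05 and none fell, where 26.8% of all 18417 genes rose and 29% fell. Counted at an unadjusted p under 0.05, 0 of the 9 were lower with limma and 0 with the methods' per-gene test. Of all 18417 genes, these 2 tests called 11135 and 8835 in either direction at that threshold. The 2 largest rises were those of CNN3 and MSN, and 6 further genes, CNN1, CNN2, TAGLN, TPM2, TPM4 and RDX, rose by 0.36 to 0.84 on the log2 scale. TPM1 did not pass, and TAGLN, counted among the 8, lay at or near background in every line. The median log2 difference of the 9 genes was 0.70, beside 0.08 over all genes. In bulk RNA, fewer cells with a transcript and less of it per cell cannot be told apart, and normalization to a common distribution hides any change in total RNA per cell. The values of each array are plotted by gene, and the differences are plotted with their confidence intervals.

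**Figure D1:**
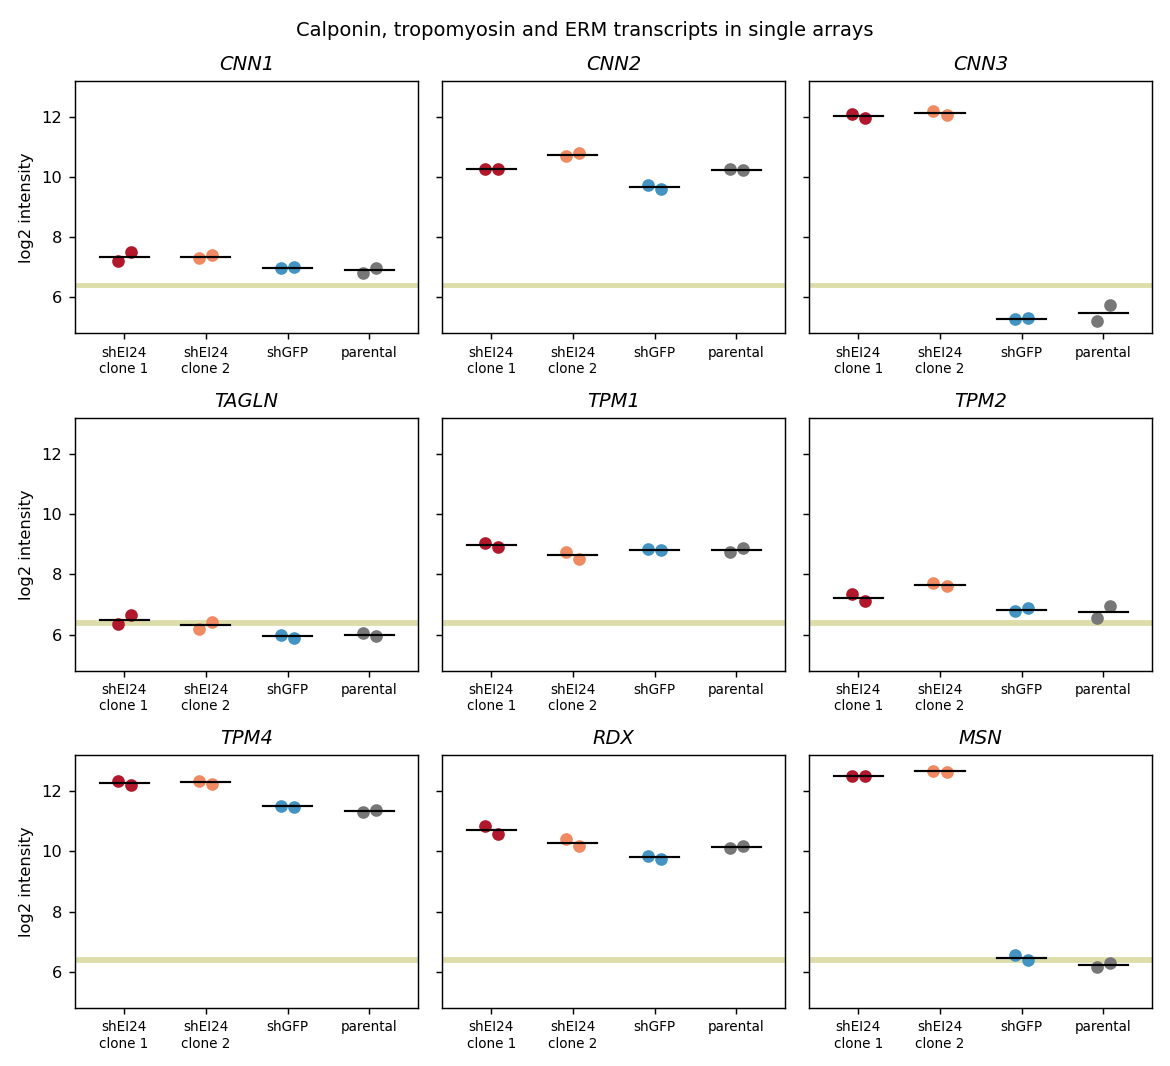
Log2 intensity (vertical axis, shared by all panels) of the 9 genes in each of the 8 arrays, 2 points per line, with the lines along the horizontal axis and the mean of each line as a bar. CNN3 and MSN stand at 11.96 and above in every shEI24 array and at 6.55 and below in every control array, and the arrays of TPM1 lie between 8.53 and 9.04. The horizontal band is the range of the background levels of the 4 lines, 6.33 to 6.46.

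**Figure D2:**
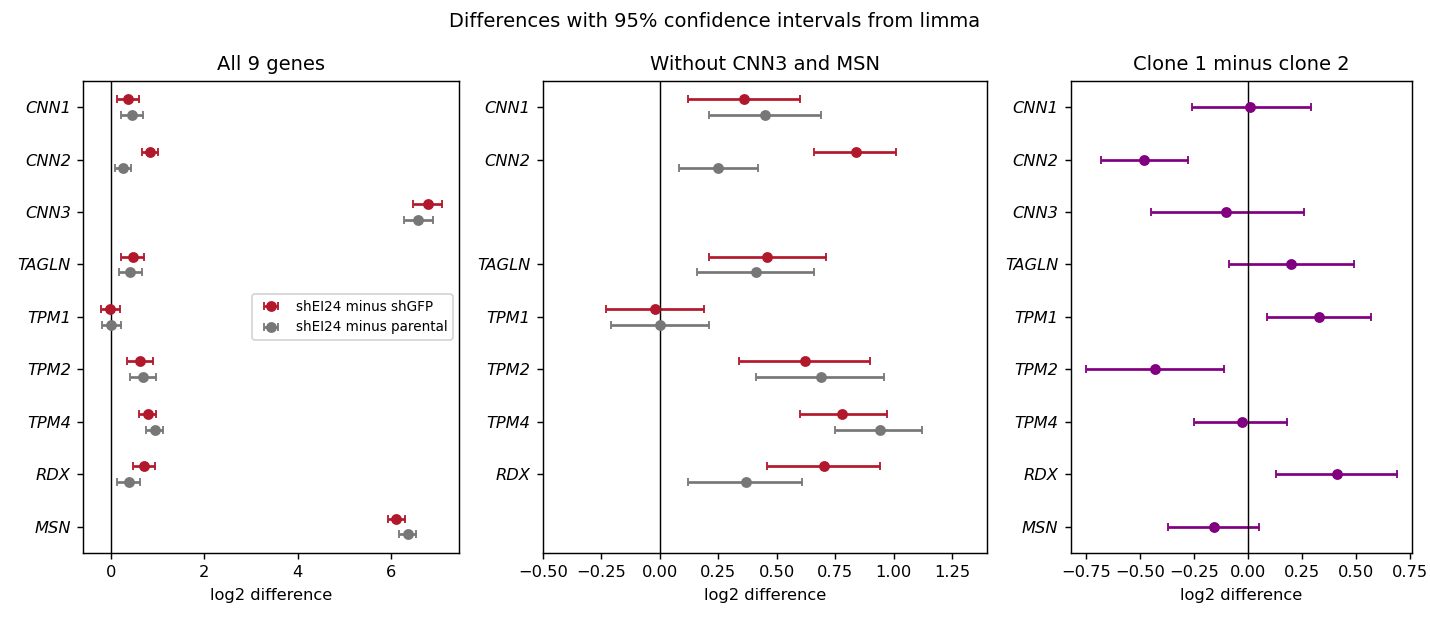
Log2 difference (horizontal axis) of the shEI24 clones from shGFP and from parental cells for the 9 genes, the same without CNN3 and MSN on a narrower axis, and clone 1 minus clone 2, as points with 95% confidence intervals from limma not adjusted over genes. Against shGFP all intervals but that of TPM1 lie above 0, and between the clones those of CNN2, TPM1, TPM2 and RDX leave out 0.

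CNN3 encodes the acidic calponin of non-muscle cells. It was at 12.10 and 11.96 in clone 1, 12.19 and 12.07 in clone 2, 5.27 and 5.30 in shGFP cells and 5.23 and 5.75 in parental cells. Both control lines were under their background levels, and both clones were far above theirs. The difference from shGFP was 6.80 (SE 0.14, 95% confidence interval 6.49 to 7.11, adjusted p = 1.9e-09 from limma). Because the shGFP level was background, the fold is a lower bound: set against the background level of shGFP in place of its measured mean, CNN3 was at least 53.7-fold higher in shEI24 cells, and against that of parental cells at least 51.5-fold higher. The clones did not differ beyond their spread (clone 1 minus clone 2 -0.10, 95% confidence interval -0.45 to 0.26, adjusted p = 0.78).

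CNN2 encodes the calponin found in many non-muscle cells, leukocytes and epithelial cells included. Its values were 10.27 and 10.26 in clone 1, 10.69 and 10.80 in clone 2, 9.73 and 9.61 in shGFP cells and 10.27 and 10.24 in parental cells. All shEI24 arrays lay above shGFP, but the arrays of clone 1 lay on those of parental cells. Against shGFP the difference was 0.84 (SE 0.08, 95% confidence interval 0.66 to 1.01, adjusted p = 1.5e-05), a 1.79-fold rise, and against parental cells it was 0.25 (95% confidence interval 0.08 to 0.42, adjusted p = 0.021). Of the 2 clones, only clone 2 was called against parental cells (0.49, adjusted p = 0.0013, beside 0.01 and adjusted p = 0.93 for clone 1, 95% confidence interval -0.19 to 0.21). RefSeq lists 11 pseudogenes of CNN2, 3 each of TPM4 and RDX and 1 each of CNN3 and MSN, and whether probes of these clusters also bind pseudogene transcripts was not tested.

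CNN1 encodes the basic calponin, a marker of differentiated smooth muscle. It was at 7.20 and 7.52 in clone 1, 7.30 and 7.40 in clone 2, 6.99 and 7.00 in shGFP cells and 6.82 and 6.99 in parental cells. The shEI24 and control arrays did not overlap. CNN1 exceeded shGFP by 0.36 (SE 0.11, 95% confidence interval 0.12 to 0.60, adjusted p = 0.017), a 1.28-fold rise. A second quantile normalization lowered it to 0.20 (adjusted p = 0.059), and it lost its call without shGFP replicate 1 (adjusted p = 0.099) or shGFP replicate 2 (adjusted p = 0.081).

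TAGLN encodes transgelin (SM22alpha), an actin-bundling protein with a calponin homology domain. It was at 6.35 and 6.65 in clone 1, 6.18 and 6.43 in clone 2, 5.99 and 5.89 in shGFP cells and 6.05 and 5.95 in parental cells. All 4 shEI24 arrays were above all 4 control arrays, yet of the line means only that of clone 1, 6.50, was above background, and clone 2, at 6.31, was not. It exceeded shGFP by 0.46 (SE 0.11, 95% confidence interval 0.21 to 0.71, adjusted p = 0.0058). Set against the background level of shGFP in place of its measured mean, the difference was 0.07, and against that of parental cells 0.01. Clone 2 against parental cells was 0.31 (adjusted p = 0.07), and the call against shGFP was lost without shGFP replicate 2 (adjusted p = 0.057).

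Genes called higher were also met among genes at background. Among the 341 olfactory receptor genes, which are silent in most tissues, the median difference from shGFP was 0.09, the 95th percentile was 0.32 and 26 genes, or 7.62%, were called higher. The differences of CNN1 (0.36) and TAGLN (0.46) were above that 95th percentile. With a second quantile normalization the median of the olfactory receptor genes was -0.04 and their 95th percentile 0.18, against 0.20 for CNN1 and 0.27 for TAGLN.

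Promoters of some calponin and tropomyosin genes are known in smooth muscle for CArG boxes, to which serum response factor (SRF) binds. The 250 bases before 1 RefSeq start per gene (GRCh38.p14) were therefore searched on both strands for this motif. The M-CAT core GGAATG, bound by TEAD factors, and the GC box GGGCGG, bound by Sp1, were searched in the same way. Other starts of a gene were not searched, and which start gave the measured mRNA was not tested. RefSeq promoters matched 9 of the 10 genes, all but TAGLN. A CArG box was in 2 of these 9, CNN2 and TPM4, and in 1.14% of all promoters. The M-CAT core was in 0 of the 9, and in 11.9% of all promoters. A GC box was in 8 of the 9, all but CNN2, and in 42.3% of all. The windows of the 9 genes held from 57.2% (MSN) to 82% (RDX) G and C. All but that of MSN were above the median of 58% over all promoters, and the GC box count was not adjusted for this. A match is a run of letters and not a site known to be bound, and its absence from this window says nothing of the factor. The promoters of CNN2 and TPM4 are shown for their CArG box (in capitals, from -89 to -80 in CNN2 and from -173 to -164 in TPM4, counted back from the start), 5′ to 3′:
CNN2, chr19:1026358-1026607, plus strand: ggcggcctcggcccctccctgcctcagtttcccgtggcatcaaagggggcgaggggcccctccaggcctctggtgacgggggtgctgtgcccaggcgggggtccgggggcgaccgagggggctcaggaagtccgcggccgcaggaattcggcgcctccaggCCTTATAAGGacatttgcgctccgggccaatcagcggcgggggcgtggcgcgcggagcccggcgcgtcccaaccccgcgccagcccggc
TPM4, chr19:16067288-16067537, plus strand: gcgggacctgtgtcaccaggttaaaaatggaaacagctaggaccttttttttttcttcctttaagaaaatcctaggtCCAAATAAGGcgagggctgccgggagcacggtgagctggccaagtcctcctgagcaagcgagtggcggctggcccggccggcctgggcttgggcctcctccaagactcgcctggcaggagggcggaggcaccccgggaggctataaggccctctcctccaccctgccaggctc
CNN2 and TPM4 rose 1.79-fold and 1.72-fold. The promoters of CNN3 and MSN, which rose most, are shown beside them with GC boxes in capitals:
CNN3, chr1:94927111-94927360, minus strand: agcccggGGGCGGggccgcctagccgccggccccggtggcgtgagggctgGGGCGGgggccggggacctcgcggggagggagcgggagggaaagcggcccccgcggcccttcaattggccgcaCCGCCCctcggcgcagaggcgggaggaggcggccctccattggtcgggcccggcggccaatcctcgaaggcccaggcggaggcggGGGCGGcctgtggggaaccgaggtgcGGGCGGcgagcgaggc
MSN, chrX:65588127-65588376, plus strand: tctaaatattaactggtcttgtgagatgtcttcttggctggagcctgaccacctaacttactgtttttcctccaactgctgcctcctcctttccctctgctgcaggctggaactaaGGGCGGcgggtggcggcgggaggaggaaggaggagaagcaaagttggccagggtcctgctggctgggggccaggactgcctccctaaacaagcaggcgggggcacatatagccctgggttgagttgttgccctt
These windows held no CArG box and no M-CAT core. CNN3 had 5 GC boxes in a window of 80.8% G and C, and MSN had 1, from -134 to -129, in a window of 57.2%, beside a median of 58% over all promoters.

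**Figure D3:**
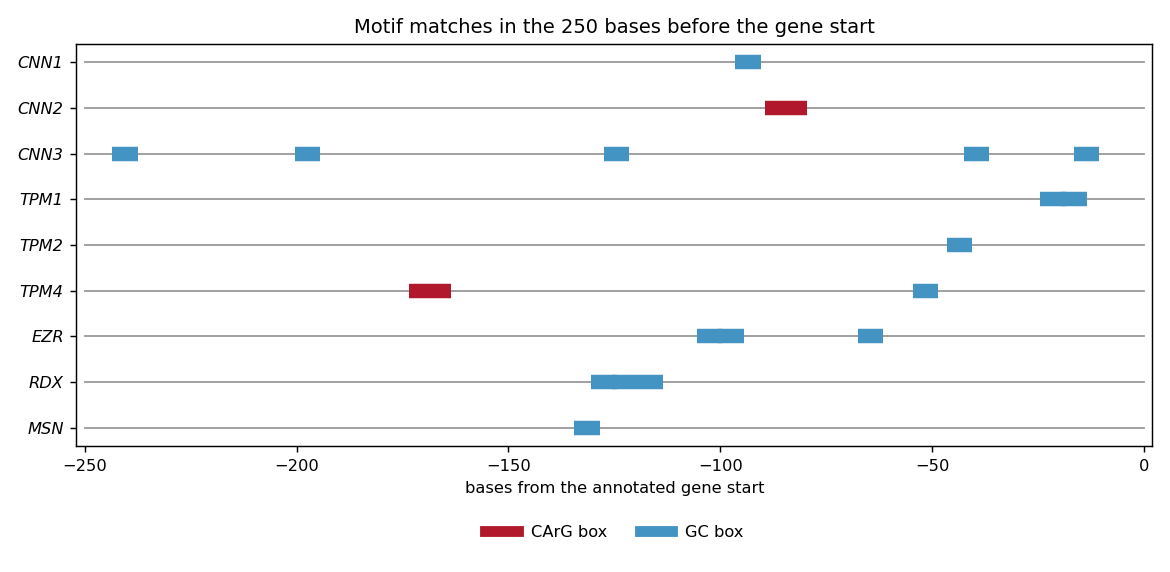
Matches of the CArG box and the GC box, drawn along the 250 bases before 1 RefSeq start of each of 9 genes. The horizontal axis gives bases from the start, and no match of the M-CAT core was among them. CArG boxes are in CNN2 and TPM4 alone, GC boxes in the other 7 and TPM4, and touching GC boxes merge into 1 block.

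TPM4 encodes a short cytoskeletal tropomyosin of non-muscle cells. It was at 12.34 and 12.20 in clone 1, 12.36 and 12.24 in clone 2, 11.52 and 11.49 in shGFP cells and 11.31 and 11.39 in parental cells. The clones coincided (difference -0.03, adjusted p = 0.88), and every shEI24 array exceeded every control array. The difference from shGFP was 0.78 (SE 0.08, 95% confidence interval 0.60 to 0.97, adjusted p = 3.5e-05), and from parental cells 0.94 (adjusted p = 1.1e-05). A second, dimmer cluster of TPM4 gave 0.79 (SE 0.09, adjusted p = 0.00028 over all clusters).

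TPM2 encodes beta-tropomyosin, a long form of muscle that also coats stress fibres. Its values were 7.34 and 7.11 in clone 1, 7.71 and 7.60 in clone 2, 6.77 and 6.88 in shGFP cells and 6.56 and 6.95 in parental cells, with the shEI24 arrays all above the controls. TPM2 exceeded shGFP by 0.62 (SE 0.12, 95% confidence interval 0.34 to 0.90, adjusted p = 0.002), a 1.54-fold rise. Clone 2 was higher than clone 1 in both arrays, but this did not pass over all genes (clone 1 minus clone 2 -0.43, adjusted p = 0.079).

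TPM1 encodes alpha-tropomyosin, whose long forms are often low in carcinoma cells. It was at 9.04 and 8.91 in clone 1, 8.76 and 8.53 in clone 2, 8.85 and 8.80 in shGFP cells and 8.75 and 8.87 in parental cells, with clone 1 above the control arrays and clone 2 at or below most of them, so shEI24 and control arrays overlapped. The difference from shGFP was -0.02 (SE 0.09, adjusted p = 0.88), with a 95% confidence interval of -0.23 to 0.19. Clone 1 minus clone 2 was 0.33 (95% confidence interval 0.09 to 0.57, adjusted p = 0.075). A cluster gives a single value for the transcripts that its probes cover. A shift between long and short forms of TPM1 or of another tropomyosin therefore cannot be read from these values.

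MSN encodes moesin, the ERM protein of leukocytes, endothelial and mesenchymal cells. It was at 12.51 and 12.52 in clone 1, 12.69 and 12.65 in clone 2, 6.55 and 6.39 in shGFP cells and 6.16 and 6.29 in parental cells. The shGFP mean, 6.47, lay close to its background level and the parental mean, 6.22, lay under its own. The difference from shGFP was 6.12 (SE 0.08, 95% confidence interval 5.94 to 6.30, adjusted p = 4.8e-10), a 69.6-fold rise. Against the background level of parental cells MSN was at least 73.3-fold higher. The clones did not differ beyond their spread (-0.16, 95% confidence interval -0.37 to 0.05, adjusted p = 0.34).

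RDX encodes radixin. Its values were 10.84 and 10.57 in clone 1, 10.42 and 10.17 in clone 2, 9.86 and 9.74 in shGFP cells and 10.10 and 10.18 in parental cells. The lowest array of clone 2 fell within the parental range, so the groups overlapped. Radixin mRNA exceeded shGFP by 0.70 (SE 0.11, 95% confidence interval 0.46 to 0.94, adjusted p = 0.00044), and parental cells by 0.37 (adjusted p = 0.017). Clone 2 alone was not called against parental cells (0.16, adjusted p = 0.31).

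The cluster annotated to both EZR, which encodes ezrin, and ROS1, a receptor tyrosine kinase gene, was at 10.77 and 10.78 in clone 1, 11.03 in both arrays of clone 2, 9.73 and 9.58 in shGFP cells and 10.50 and 10.38 in parental cells. All shEI24 arrays lay above all control arrays. Its difference from shGFP was 1.25 (SE 0.08, adjusted p = 1.5e-05 over all clusters), and from parental cells 0.46 (adjusted p = 0.0025). Of its 2 RefSeq accessions, 2 belong to EZR and 0 to ROS1. Its 7 other accessions were not assigned to a gene, and which of the 2 genes gave the signal was not tested.

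The 2 control lines were not equal for these genes. Of the 9 genes, 1 was lower and 0 were higher in shGFP than in parental cells, where 7.44% of all genes were lower and 3.21% higher. That gene was CNN2 (-0.59, SE 0.09, adjusted p = 0.0048), and the cluster of EZR and ROS1 was also lower in shGFP (-0.78, adjusted p = 0.0073 over all clusters). At an unadjusted p under 0.05, 2 genes were lower and 1, MSN, was higher. Of all 18417 genes, 4525 were called in either direction at that threshold. CNN2 lost this call without shGFP replicate 2 (-0.53, adjusted p = 0.073). RDX was -0.33 (adjusted p = 0.13). Set against parental cells, 8 of the 9 genes were still higher in shEI24 cells and 0 lower, beside 25.1% and 30.8% of all genes. By clone, 7 were higher in clone 1 (21.3% of all genes) and 6 in clone 2 (23.9%).

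Each clone against shGFP gave 8 higher genes of 9, where 23% of all genes were higher in clone 1 and 25.2% in clone 2. CNN3 rose by 6.75 in clone 1 and 6.85 in clone 2, and MSN by 6.04 and 6.20, so the 2 largest rises were close in both clones. Between the clones CNN2 was called, with 0.48 less in clone 1 (clone 1 minus clone 2 -0.48, SE 0.09, adjusted p = 0.0077), and 1 of 9 genes was lower and 0 higher beside 5.88% and 9.29% of all genes. At an unadjusted p under 0.05, 2 genes, TPM1 and RDX, were higher in clone 1 and 2 lower. Of all 18417 genes, 4962 were called in either direction at that threshold. RDX (0.41, SE 0.12, adjusted p = 0.058) passed under several alternatives, and the CNN2 call was lost without clone 2 replicate 2 (-0.43, adjusted p = 0.051). EI24 itself was lower in clone 1 than in clone 2 (-0.68, adjusted p = 0.0023).

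The levels of each gene over the 4 lines gave an order in which few neighbours differed. For CNN3, MSN, TPM2 and TPM4 the clones stood above the controls, and the only called step was between a clone and a control. For CNN1 the called step was between clone 2 and shGFP (adjusted p = 0.037). CNN2 ran from clone 2 to clone 1, parental cells and shGFP, with steps called between the clones and between parental cells and shGFP. RDX ran from clone 1 to clone 2, parental cells and shGFP with no neighbours that differed, and for TAGLN and TPM1 no neighbours differed. All 4 shEI24 arrays were above all 4 control arrays for 6 of the 9 genes, CNN1, CNN3, TAGLN, TPM2, TPM4 and MSN, beside 23.8% of all genes.

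The genes whose pattern over the 8 arrays was most like that of CNN3, by root mean squared difference of log2 values centred on shGFP, were ANTXR2 (0.34, with a log2 difference from shGFP of 7.02), which encodes a receptor for anthrax toxin and extracellular matrix, and TFPI2 (0.37, 6.68), a protease inhibitor. Those most like MSN were ANKRD1 (0.16, 5.93), an ankyrin repeat protein of the nucleus and sarcomere, and IFIT2 (0.17, 6.20), an interferon-induced gene. This ranks likeness over 8 arrays of 4 lines and was not tested.

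The other genes of the calponin and ERM families moved in different directions. Transgelin 3, TAGLN3, a neuronal relative of TAGLN, rose by 2.87 (SE 0.20, adjusted p = 2.6e-06), with line means of 9.09 in clone 1, 9.91 in clone 2, 6.62 in shGFP cells and 6.61 in parental cells. NF2, which encodes merlin, the tumour suppressor related to the ERM proteins, was lower in both clones (means 8.60 in clone 1 and 8.43 in clone 2, against 9.50 in shGFP cells and 9.89 in parental cells, difference from shGFP -0.98, SE 0.08, adjusted p = 7.9e-06). TAGLN2 was 0.24 above shGFP (adjusted p = 0.033) and not called against parental cells (-0.16, adjusted p = 0.12). TPM3 is not analysed here.

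Of 15 measured genes that act with tropomyosin on thin filaments, 2 rose and 2 fell (median 0.17, beside 0.08 over all genes), where 26.8% of all genes rose and 29% fell. Against parental cells 2 were higher and 3 lower. Of the 15 genes, 5 were at background in all lines. CALD1, which encodes caldesmon, an actin and tropomyosin-binding protein, rose by 2.80 (SE 0.14, adjusted p = 2.8e-07), with line means of 9.08 in clone 1, 8.62 in clone 2, 6.05 in shGFP cells and 6.09 in parental cells, the controls being at background. The tropomodulin TMOD2 was 0.42 above shGFP (adjusted p = 0.017) but not called against parental cells (-0.07, adjusted p = 0.64). The troponin TNNT1 fell by 0.54 (adjusted p = 0.00088), and TMOD3 by 0.27 (adjusted p = 0.024).

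Of 32 measured actomyosin and stress fibre genes, 22 rose and 5 fell (median 0.64), where 26.8% of all genes rose and 29% fell. Against parental cells 20 were higher and 6 lower, where 25.1% of all genes were higher and 30.8% lower. The focal adhesion proteins TLN1 (talin, 1.94) and VCL (vinculin, 1.80) rose, as did LIMA1 (1.89), an actin-bundling LIM protein, while the small GTPase RHOB fell by 2.24 and the profilin PFN2 by 0.50 (adjusted p = 0.0024). Of 14 measured genes controlled by SRF and its partners the MRTF proteins, the MRTF genes included, 11 rose and 2 fell (median 1.21, beside the same 26.8% and 29% of all genes). Against parental cells 8 were higher and 3 lower. The 11 include MYOCD, at background in all lines, and ACTG2, a smooth muscle actin, which was 0.33 above shGFP but lower than in parental cells (-0.48, adjusted p = 0.0035). The matrix proteins CCN2 and CCN1 rose by 4.51 and 4.50. The immediate early gene EGR1 rose by 1.70 in clone 1 and 4.01 in clone 2, which differed (clone 1 minus clone 2 -2.31, adjusted p = 7.6e-06). MRTFB, which encodes an SRF partner, was lower than in shGFP in both clones (-1.63 in clone 1 and -2.41 in clone 2, clone 1 minus clone 2 0.78, adjusted p = 0.00064), and FOS fell by 0.93 (adjusted p = 0.00016).

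Of 19 measured partners and kinases of ERM proteins, 12 rose and 3 fell (median 0.62, beside 26.8% and 29% of all genes). Against parental cells 12 were higher and 2 lower. Of the membrane proteins among them, CD44, the hyaluronan receptor, rose by 4.14 (adjusted p = 2.2e-09) and the adhesion molecule ICAM1 by 3.89 (adjusted p = 5.4e-09), while SPN (0.14), PDPN (0.11) and CFTR (0.15), named after their values were seen, were not called. PRKCA, a kinase of ERM proteins, rose by 3.74 in clone 1 and 2.50 in clone 2, which differed (clone 1 minus clone 2 1.24, adjusted p = 0.00019). NHERF1, the scaffold that joins ezrin to epithelial channels, fell by 2.22 (adjusted p = 2.1e-08), with line means of 10.22 in clone 1, 10.21 in clone 2, 12.44 in shGFP cells and 12.53 in parental cells, and ICAM3 fell by 0.55 (adjusted p = 0.00075). The ERM kinases STK10 and SLK, named after their values were seen, rose by 1.62 and 0.62, and both were lower in clone 1 than in clone 2 (STK10 -0.51, adjusted p = 0.0077, and SLK -0.32, adjusted p = 0.041).

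**Figure D4:**
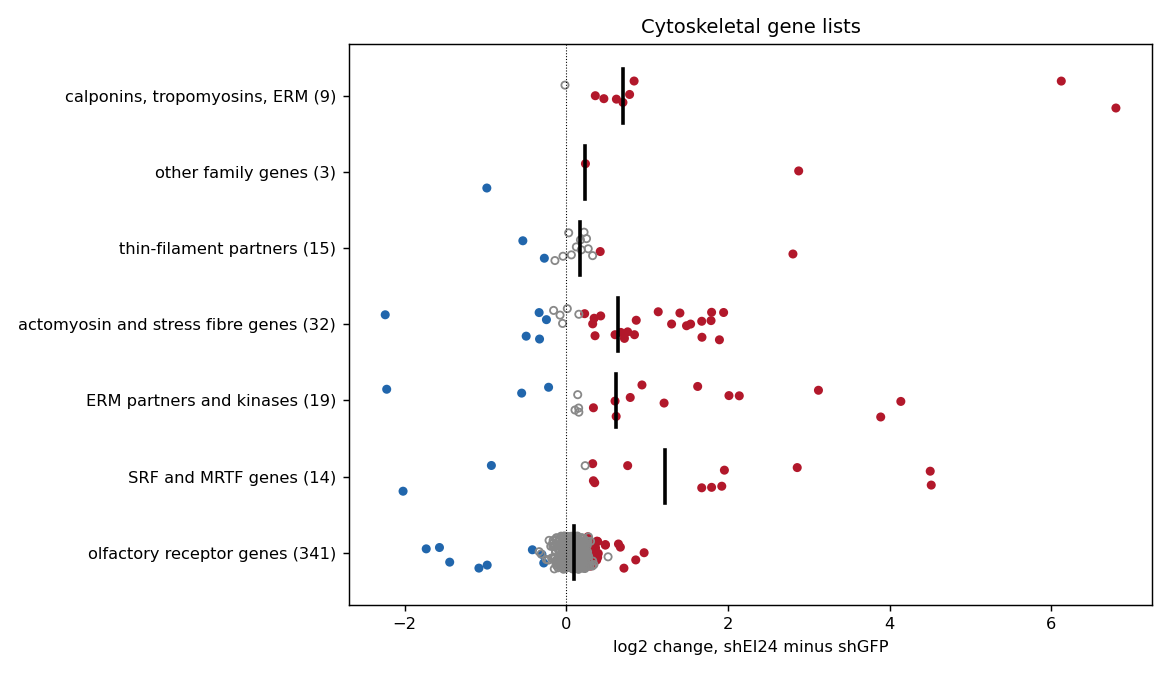
Log2 difference of shEI24 clones from shGFP (horizontal axis) for the measured genes of each list (rows), 1 point per gene, coloured by the call of limma, red for higher, blue for lower and open grey for not called, with the list median as a bar, the 9 genes at the top and 341 olfactory receptor genes at the bottom. The actomyosin, ERM and SRF lists have medians of 0.64, 0.62 and 1.21, and points lie on both sides of 0 in each.

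Markers of luminal cells and of other cell types are given beside the 2 largest rises. Luminal markers fell, and those of other cell types moved unevenly. Of 8 luminal markers 8 fell against shGFP, where 29% of all genes fell (median -3.16, summed levels of 69.8 to 73.1 in shEI24 arrays against 98.1 to 99.1 in control arrays). The counts that follow stand beside 26.8% of all genes higher against shGFP and 25.1% against parental cells. Of 8 smooth muscle markers, 5 rose against shGFP (median 0.33, sums of 57.0 to 58.5 against 54.6 to 57.7), but against parental cells 1, ACTA2, was higher and 2 were lower. One of the 5 was MYOCD, which like LMOD1 was at background in all lines. Of 9 fibroblast markers 1 rose (0.18, 55.1 to 56.8 against 53.8 to 55.0), and this was PDGFRA, at background in all lines with DCN, LUM and FAP, so 0 of the fibroblast markers above background rose against shGFP. Against parental cells 2 fibroblast markers were higher. Of 6 leukocyte markers 5 rose (0.93, 45.4 to 47.5 against 38.1 to 39.4) and 4 were higher against parental cells. PTPRC, called against shGFP (0.21, adjusted p = 0.043), and CD3E were at background in all lines, and CD68 was higher by 3.95. Of 4 endothelial markers 2 rose (0.40, 26.1 to 26.9 against 23.4 to 24.5) and 3 were higher against parental cells. KDR, the main VEGF receptor, rose by 1.82 (adjusted p = 1.7e-06), with line means of 7.75 in clone 1, 7.47 in clone 2, 5.79 in shGFP cells and 6.03 in parental cells, the controls being at background. The other was PECAM1, which like VWF was at background in all lines. Of 4 myoepithelial markers 2 rose (0.26, 27.5 to 29.3 against 26.5 to 27.5) and 4 were higher against parental cells. MME was at background in all lines, and KRT14 was called in clone 2 (adjusted p = 0.00046) but not in clone 1 (0.33, adjusted p = 0.14). Their part in the rises of CNN3, MSN and the other genes was not tested.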

How the data were processed

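Total RNA of the 4 lines was hybridised to 8 Affymetrix whole-transcript arrays. The authors deposited log2 intensities of transcript clusters. GCOS and RMA are the tools in the submitters' processing notes. Their versions and the genome build of the array were not given in the sources used here. Under RMA, the software removes background and equalizes the quantiles of the arrays, so differences shrink near the floor. The table held 33297 clusters: 19460 had 1 symbol, 1754 several and 12083 none. The brightest cluster with 1 symbol was kept per gene (1043 set aside, 18417 genes). No column was left unassigned, and of the 2 numbers in the shEI24 labels the first was read as clone, the second as replicate.

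Differences came from limma 3.58.1, run in R 4.3.3 with lmFit and eBayes (1 mean per line, 4 residual degrees of freedom), with p-values adjusted over 18417 genes by Benjamini-Hochberg and a threshold of 0.05. Clusters with several symbols were fitted over all 33297. Members and lists (11 lists, 123 genes, 111 measured) were chosen with earlier results of these data known. Beyond the members and EI24, the genes named are all other family genes, of each other list up to 4 with the largest change and up to 2 against its direction, and the 2 most like CNN3 and MSN, while the other cell type markers named, SPN, PDPN, CFTR, ACTG2, STK10 and SLK are outside that rule. Promoter sequences are RefSeq's (GRCh38.p14). On data simulated for shEI24 against shGFP (200 changed of 18417 genes), the share recovered was 47.6% at a log2 change of 0.5, 88.4% at 1, 92% at -1 and 100% at 2. Far more genes were called in the data (4941 higher and 5348 lower), and the adjustment depends on that share. These figures are therefore not the recovery in the data. Precision is limited by how few arrays there are. Alternatives changed the control (to parental cells, or to both pooled), the arrays fitted (shEI24 and shGFP alone), or the replicate (1 per line), or used a replicate block, a variance trend with intensity, quantile normalization repeated or arrays centred on medians, no dimmest genes, all clusters, a 2-fold threshold, the methods' t-test or each array left out in turn.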

Additional observations from a re-analysis of the deposited data

Results flagged for a closer look

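CNN2 differed between the clones, tested directly in the limma fit: clone 1 minus clone 2 was -0.48 (SE 0.09, adjusted p = 0.0077), with 10.27 and 10.26 in clone 1 and 10.69 and 10.80 in clone 2. Both clones were above shGFP, by 0.60 in clone 1 and 1.08 in clone 2. The cause of the difference was not tested.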

How the results depend on the processing

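Against shGFP, CNN3 (6.59 to 6.83) and MSN (6.04 to 6.37) kept their calls under all 21 alternatives. With each line as 1 replicate and parental cells added to shGFP as control, 2 choices changed together, CNN2 (0.54, adjusted p = 0.18) and RDX (0.53, adjusted p = 0.10) lost theirs, and 2743 genes were higher and 3423 lower. The 2-fold threshold left 2 of the 9 genes, CNN3 and MSN, and 1127 genes higher and 940 lower. The methods' t-test called 8 of the 9 genes at its unadjusted threshold, where it called 8835 of all 18417 genes in either direction. After Benjamini-Hochberg adjustment it called 4 (CNN1 0.064, TAGLN 0.080, TPM2 0.086 and RDX 0.072 missing the threshold), with 3203 genes higher. The methods name an unpaired t-test in general and not for the arrays in particular. Over all clusters, also those with several symbols or none, an alternative added after the data were seen, 8750 were lower. Without 1 array, 6 to 8 of the 9 genes were higher. TPM1 turned to 0.06 with a second quantile normalization and ranged from -0.08 to 0.04 without 1 array. Clone 1 minus clone 2 called 1 of the 9 genes, 3 with the replicate block (RDX adjusted p = 0.022, TPM1 adjusted p = 0.041, CNN2 adjusted p = 0.0044), 3 with the variance trend, 2 with a second quantile normalization, 2 without the dimmest genes and 0 to 2 without 1 array, where CNN1 ranged from -0.15 to 0.17 and TPM4 from -0.10 to 0.04. shGFP minus parental called 2 with the variance trend, 0 to 1 without 1 array, where TPM1 ranged from -0.04 to 0.07, TPM2 from -0.13 to 0.26 and CNN3 from -0.47 to 0.05. Causes were not tested.

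The same replicate number need not pair arrays of different lines: deviations of same-numbered arrays correlated at 0.25 to 0.59 over the line pairs, but with 2 numbers this is no pairing by design. With the replicate block 8 of the 9 genes were higher, and 6307 genes were higher and 5743 lower, against 4941 and 5348 without it. Signal limits CNN3, MSN and TAGLN in the controls, where they lay at or near background, and the arrays number 2 per line.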
